A study of Mus musculus with 16 samples.

Results

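The ovary was profiled by RNA sequencing in C57BL/6NHsd female mice whose testosterone had been stopped (Post T) and in their age-matched controls (Control for Post T). The comparison rests on 8 of the 16 libraries of the series, chosen by sample title, with 4 Post T and 4 control ovaries and 1 ovary per mouse. Post T mice had weekly subcutaneous injections of 0.9 mg testosterone enanthate in sesame oil for 6 weeks, were left until estrous cycles resumed, and were killed in diestrus after 4 cycles. Controls had sesame oil alone and were killed in diestrus in parallel. Mice of both groups were 24 to 28 weeks old, and the labels name no transgene or deletion. The other 8 libraries came from mice 16 weeks old, killed during testosterone (On T) or as their controls. On T mice had 0.9 mg testosterone enanthate weekly for 6 weeks, and their controls had none. These libraries entered the same fit. They are used only where an effect after washout is set beside the effect during treatment.

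A cycling mouse ovary holds follicles, each an oocyte with its granulosa and theca cells, and corpora lutea, which form from ovulated follicles, make progesterone from cholesterol and then regress. Regressing luteal tissue is cleared largely by macrophages, which take up dying cells and digest them in lysosomes, acidic vesicles filled with hydrolytic enzymes and kept acid by a proton pump. Ferritin stores the iron, and lipid droplets the cholesterol esters, that such cells take in.

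Of 18833 genes with enough counts to be tested, 2315 (12.3%) differed between Post T and control ovaries at an adjusted p under 0.05 in edgeR's quasi-likelihood test, and are called below. Of these 1410 (7.49%) were higher and 905 (4.81%) lower after washout, against a median log2 fold change of -0.01 over all genes tested. Changes over 2-fold were called for 676 genes upwards (3.59%) and 441 downwards (2.34%). Changes over 4-fold were called for 211 genes upwards (1.12%) and 186 downwards (0.988%). The groups of 4 did not overlap for 3115 genes (16.5%). The shares called and not overlapping over all genes tested are the background for the counts of gene lists below. Total expected counts ran from 26598055 to 44292334 per library, and mitochondrially encoded genes held 2.00 to 2.31% of the counts in controls and 2.44 to 3.21% in Post T libraries. The 50 most abundant genes held 11.7 to 12.9% and 13.4 to 16.3%. The first principal component, with 49.2% of the variance, placed the controls between -53.8 and -28.1 and the Post T libraries between 37.9 and 50.6. The genes called higher held 7.47% of all counts in controls (7.20 to 7.66%) and 14.0% after washout (13.2 to 16.0%). Those called lower held 6.21% (5.22 to 7.03%) and 3.25% (3.13 to 3.35%).

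**Figure D1:**
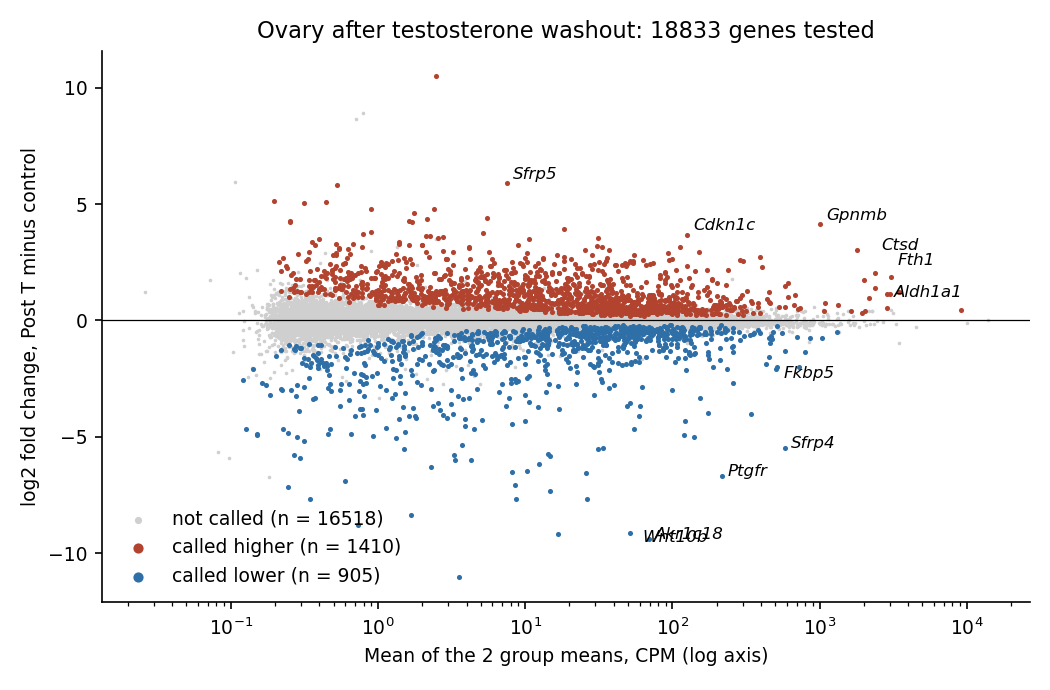
Log2 fold change of Post T over control (vertical axis) against the mean of the 2 group means in counts scaled to library size (CPM, horizontal log axis), with 1 point per gene tested. The 1410 genes called higher include some of the most abundant ones, Fth1, Ctsd and Aldh1a1, while the largest falls, such as Akr1c18 and Wnt10b, reach below -9.

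The largest gain in abundance was that of ferritin heavy chain, Fth1 (chr19:9980598-9985098 in GRCm38, plus strand). In counts scaled to library size (CPM), Fth1 stood at 1496, 1306, 1349 and 1128 in the 4 controls and at 4474, 4562, 6546 and 3701 in the 4 Post T ovaries. All Post T values were above all control values, with the third Post T library highest. Genes named for a large fold change, gain, loss or difference of effects were drawn only from called genes whose groups did not overlap. For them, here and below, the separation of the groups follows from that rule. Fth1 rose by a log2 fold change of 1.87 ± 0.16 (SE, adjusted p = 6.24e-07). The ferritin light chain gene Ftl1 went from 1857 ± 160 to 4131 ± 1087 CPM (SD, n = 4 each), a log2 change of 1.15 ± 0.15. Both ferritin genes have many processed pseudogenes, so that reads may be split between copies. Among 27 tested genes of iron and haem handling, 13 were called higher and 1 lower, with a median log2 change of 0.42. Slc11a1, the iron and manganese transporter of the phagosome membrane, rose from 15.7 ± 4.47 to 88.8 ± 15.8 CPM, a log2 change of 2.50. The iron exporter Slc40a1 stood at 133 ± 34.8 and 166 ± 21.5 CPM (adjusted p = 0.292), and haem oxygenase 1, Hmox1, at 92.1 ± 41.3 and 164 ± 58.0 CPM (adjusted p = 0.0971); both were picked after the values were seen. Hmox1 passed the threshold without the second control, with a log2 change of 1.21, or without the fourth Post T library, with 1.04. The member called lower was the haemoglobin scavenger receptor Cd163, and its call was lost when any of 5 single libraries was left out (control replicate 2 or 3, or Post T replicate 1, 3 or 4). In a bulk tissue, fewer or more cells of a type and less or more RNA per cell cannot be told apart, here and in all that follows.

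Most of the lysosomal hydrolases and membrane proteins tested rose. Of 53 tested, 35 were called higher and 2 lower, with a median log2 change of 0.50, and their summed level went from between 10730 and 12550 CPM in controls to between 20880 and 28600 CPM after washout. Cathepsin D, Ctsd (chr7:142375911-142388038, minus strand), the main aspartic protease of the lysosome, stood at 1142, 786, 1026 and 758 CPM in controls and at 3487, 3677, 5033 and 3084 CPM after washout. The lowest Post T value was far above the highest control value. The log2 change was 2.04 ± 0.17 (adjusted p = 5.19e-07). Prosaposin, Psap, the precursor of the activators of sphingolipid breakdown, rose from 2105 ± 140 to 4866 ± 783 CPM. Alpha-galactosidase A, Gla (chrX:134588149-134601125, minus strand), which removes terminal galactose from glycolipids, had the smallest p of the list. Its level was 19, 17.1, 17.4 and 14.8 CPM in controls against 47.9, 47.9, 51.3 and 47.5 CPM, a log2 change of 1.51 ± 0.11 (adjusted p = 1.66e-07). The spread of Gla among the 4 Post T ovaries was small beside the gap to the controls. Mcoln3, a cation channel of the endolysosomal membrane, was near 0 in controls (0.219 to 0.918 CPM) and at 8.68 to 12.4 CPM after washout. The 2 members that fell were Arsb, a sulfatase of glycosaminoglycans (130 ± 10.2 to 86.8 ± 8.13 CPM), and Gm2a, the activator of ganglioside breakdown (827 ± 342 to 193 ± 13.7 CPM, a log2 change of -2.10). Without the third Post T library, which held the highest Fth1, Ctsd and Psap values, 31 hydrolases and membrane proteins were called higher. The count was also 31 without control 4.

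The proton pump (V-ATPase) had 21 tested subunits and accessory proteins, of which 10 were called higher and 1 lower, with a median log2 change of 0.42. Atp6v1a, the catalytic subunit, stood at 113, 104, 99.7 and 101 CPM in controls and at 177, 176, 165 and 177 CPM after washout. The groups did not overlap, and the log2 change was 0.73 ± 0.07 (adjusted p = 9.26e-07). Atp6v0d2, a subunit form known from osteoclasts and macrophages, rose from 22.4 ± 6.82 to 201 ± 33 CPM, and Tcirg1, the a3 subunit of the same cells, from 42.0 ± 5.13 to 117 ± 27.7 CPM. Atp6v0e2, a membrane subunit with a narrower tissue range, fell from 194 ± 154 to 68.5 ± 2.92 CPM. The first control held 417 CPM of Atp6v0e2, and without it the log2 change went from -1.5 to -0.79 and the number of pump genes called higher from 10 to 16. Clcn7, the chloride and proton exchanger that works beside the pump, went from 50.3 ± 5.18 to 93.1 ± 6.58 CPM (log2 change 0.89).

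Of 25 tested regulators of lysosome formation and autophagy, 8 were called higher, with a median log2 change of 0.23. Fnip2, a folliculin partner in nutrient sensing at the lysosome, rose from 19.9 ± 3.40 to 59.6 ± 2.94 CPM, and Tfec, the family member most known from macrophages, from 1.14 ± 0.59 to 5.03 ± 1.82 CPM. Tfeb and Tfe3, the transcription factors that drive lysosomal genes when they enter the nucleus, were taken up after the values were seen. Tfeb stood at 16.5 ± 0.31 and 22.7 ± 5.02 CPM (log2 change 0.45, adjusted p = 0.0365) and Tfe3 at 51.5 ± 6.41 and 62.2 ± 2.99 CPM (0.27, adjusted p = 0.036). The Tfeb call was lost without any 1 of 6 libraries (any control, or Post T replicate 2 or 3), with log2 changes of 0.31 to 0.48. The Tfe3 call was lost without any 1 of 4 libraries (control replicate 1 or 4, or Post T replicate 2 or 3), with log2 changes of 0.24 to 0.27. The related Mitf was not called (13.6 ± 3.93 and 16.8 ± 3.46 CPM, adjusted p = 0.408). With the second or the third Post T library left out, 5 regulators were called higher in place of 8.

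These factors bind a palindromic E-box, TCACGTGA, and promoters of the lysosomal genes are shown because many of those genes rose together. In RefSeq windows from 250 bases before to 50 bases after the start site (GRCm38.p6), the 8 letters were found in 304 of 27025 genes (1.12%) and in 1.93% of the genes tested here that had a window. They were in 3 of 17 proton pump genes with a window (17.6%), 4 of 43 hydrolases and membrane proteins (9.30%) and 0 of 22 regulators. Among all genes called higher the share was 1.91%, and among those called lower 0.596%. Other motifs were searched in the same windows, and no share was tested against another. The PU.1 core GAGGAAGT was in 8.3% of genes called higher, 2.09% of those called lower and 3.73% of genes tested. The same shares were 10.7, 7.6 and 11.1% for the E-box core CACGTG and 1.62, 2.09 and 1.39% for the NR5A element CAAGGTCA. For the sterol regulatory element TCACNCCAC they were 2.0, 2.09 and 1.49%. A match is only the motif's letters in this window. The TCACGTGA matches of genes called higher in these lysosomal lists are printed where they and 11 bases on each side lie before the start. They run 5′ to 3′ on the gene's strand, with the E-box in capitals. Those of Ctsd and Mcoln1 lie at chr7:142387908-142387937 and chr8:3500462-3500491, over an annotated GENCODE M21 exon of the same gene. That of Atp6v1a lies at chr16:44139373-44139402 within the gene and outside its exons, and those of Gla at chrX:134601215-134601244 and chrX:134601182-134601211, over an exon of the neighbouring Hnrnph2.
Gla, first match: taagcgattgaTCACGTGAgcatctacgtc
Gla, second match: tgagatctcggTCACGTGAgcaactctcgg
Ctsd: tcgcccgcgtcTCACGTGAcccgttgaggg
Mcoln1: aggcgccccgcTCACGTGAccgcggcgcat
Atp6v1a: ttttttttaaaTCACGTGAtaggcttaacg
The flanks differ between the genes, and Gla alone has 2 copies. Mcoln1, the calcium channel of lysosomes, was taken up for its match. It went from 30.9 ± 1.06 to 38.6 ± 3.28 CPM, a log2 change of 0.32 (adjusted p = 0.00757 in edgeR). This was less than that of Gla (1.51), Ctsd (2.04) or Atp6v1a (0.73). Mcoln1 was not called by limma on values also scaled for gene length (TPM). Its log2 change was 0.1 there, with adjusted p = 0.737 on log2(TPM + 1) and 0.735 on log2(TPM + 0.1).

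**Figure D2:**
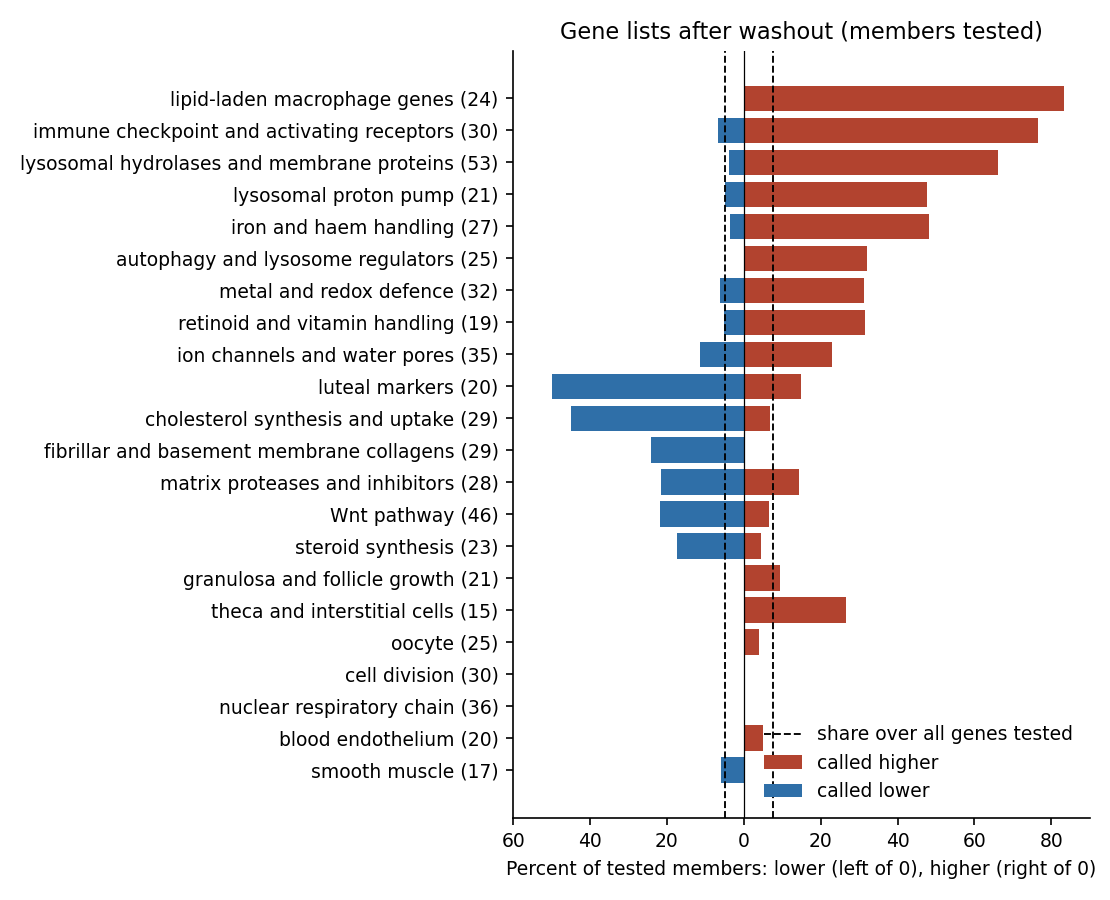
Share of each gene list's tested members (number in brackets) that were called higher (right, red) or lower (left, blue) after washout, in percent; dashed lines mark the shares over all genes tested, 7.49% higher and 4.81% lower. Among the lists drawn, those of lipid-laden macrophages (20 of 24), activating and checkpoint receptors (23 of 30) and lysosomal hydrolases and membrane proteins (35 of 53) reach furthest right, and those of luteal markers (10 of 20) and cholesterol (13 of 29) furthest left; other lists, such as adrenal cortex (4 of 7 lower) and cytokines and chemokines (21 of 35 higher), are not drawn.

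Most of the lipid-laden macrophage genes tested rose. Of 24 tested, 20 were called higher, with a median log2 change of 1.61, and their summed level was 2526 to 3782 CPM in controls and 8683 to 11580 CPM after washout. Spp1, osteopontin, a secreted matrix protein of such cells, stood at 15.2, 34.0, 22.7 and 16.4 CPM in controls and at 101, 147, 125 and 103 CPM after washout. No Post T value came near the control range, and the log2 change was 2.43 ± 0.28 (adjusted p = 1.27e-05). Pld3, a lysosomal nuclease, rose from 119 ± 13.6 to 342 ± 50.8 CPM, and Apoe, the apolipoprotein that carries cholesterol out of cells, from 1328 ± 394 to 3449 ± 670 CPM. Lyz2, the lysozyme of myeloid cells, which shares much of its sequence with Lyz1, rose from 394 ± 190 to 3223 ± 630 CPM (log2 change 3.03). Hk3, the hexokinase of myeloid cells, went from 5.96 ± 1.26 to 55.4 ± 10.4 CPM (log2 change 3.22). Of the 24 tested glycolysis genes, 2 were called higher (Hk3 and Eno2) and 1 lower (Pfkp), or 12.5% against 12.3% over all genes tested. The count higher was 1 without control 1, 3 or 4 or Post T replicate 2 or 3. The count lower was 0 without any 1 library other than controls 2 and 4.

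Many surface receptors of immune cells rose as well. Of 30 tested activating and checkpoint receptors, 23 were called higher and 2 lower (Pdcd1 and Tigit), with a median log2 change of 1.67; the count lower was 1 without any 1 library other than controls 1 and 2. Clec7a, the beta-glucan receptor, stood at 37.2, 33.8, 43.0 and 27.6 CPM in controls and at 269, 266, 264 and 277 CPM after washout. The 4 Post T ovaries were almost level with each other, and the log2 change was 2.93 ± 0.22 (adjusted p = 1.87e-07). Clec4e, a receptor for damaged cells and mycobacterial lipid, rose from 0.155 ± 0.0593 to 3.10 ± 1.44 CPM, with the second Post T library at 5.26 CPM. Pdcd1, the inhibitory receptor PD-1, fell from 4.54 ± 1.19 to 1.39 ± 0.365 CPM. Among the largest fold changes upwards were Cxcr1, a chemokine receptor of neutrophils (0.161 to 4.62 CPM), Acod1, which makes itaconate in activated macrophages (0.0578 to 1.73 CPM), and Awat1, a wax and retinyl ester synthase (0.199 to 4.08 CPM). Pira2, an activating receptor from a family of near-identical genes whose reads may be split, went from 2.28 ± 0.86 to 34.6 ± 4.46 CPM. The pan-macrophage gene Adgre1 stood at 16.0 ± 4.90 and 22.6 ± 0.542 CPM and was not called (adjusted p = 0.121). The third control alone held 23.3 CPM of Adgre1, and without it the log2 change was 0.76 and was called. Of 27 tested macrophage identity genes, 15 were called higher and 3 lower.

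Several genes that handle vitamin A derivatives rose too. Of 19 tested genes of retinoid and vitamin handling, 6 were called higher and 1 lower, with a median log2 change of 0.56. Aldh1a1 (chr19:20492715-20643465, plus strand), which oxidises retinal to retinoic acid, stood at 1656, 2266, 1672 and 1714 CPM in controls and at 3819, 3835, 3766 and 4434 CPM after washout. Even the highest control was well below the lowest Post T ovary, and the log2 change was 1.12 ± 0.20 (adjusted p = 0.000856). Dhrs3, which reduces retinal to retinol, rose from 84.6 ± 6.60 to 161 ± 28.8 CPM, and Lrat, which stores retinol as esters, from 37.1 ± 9.37 to 78.0 ± 14.6 CPM. Rarres1, a retinoic acid receptor responder picked after the values were seen, went from 0.124 ± 0.0325 to 0.906 ± 0.459 CPM. The member that fell was Stra6, the cell surface retinol transporter, from 22.8 ± 1.55 to 10.7 ± 2.93 CPM (log2 change -1.09, adjusted p = 0.0012).

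Of 32 tested genes of metal and redox defence, 10 were called higher and 2 lower, with a median log2 change of 0.18. Slc7a11 (chr3:49892526-50443614, minus strand), the cystine importer that feeds glutathione synthesis, stood at 6.16, 6.96, 6.07 and 7.92 CPM in controls and at 20.9, 24.0, 21.2 and 15.8 CPM after washout. The groups were clearly apart, with a log2 change of 1.59 ± 0.15 (adjusted p = 1.45e-06). Mt3, a metallothionein that binds zinc and copper, went from 9.91 ± 3.51 to 39.1 ± 5.76 CPM. Gsta3, a glutathione transferase that also isomerises steroid precursors, went from 8.48 ± 1.02 to 20.2 ± 0.89 CPM; near-identical Gsta genes may share its reads. In the other direction Gpx3, the secreted glutathione peroxidase, fell from 834 ± 167 to 331 ± 25.4 CPM (log2 change -1.33), and Gss, glutathione synthetase, was called lower as well. Without control 2, 4 members were called lower.

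Genes of lipid mediators were called in both directions. Of 28 tested prostaglandin and eicosanoid genes, 5 were called higher (Hpgds, Tbxas1, Pla2g7, Alox5ap and Ptgir) and 2 lower (Ptgfr and Tbxa2r). The count lower was 1 without any 1 library other than control 2. Hpgds, the haematopoietic prostaglandin D synthase, stood at 5.73 to 6.72 CPM in controls and at 21.7 to 28.3 CPM after washout, a log2 change of 2.01 ± 0.19. Tbxas1, thromboxane synthase, rose from 4.49 ± 0.847 to 15.4 ± 2.63 CPM, and Pla2g7, which degrades platelet-activating factor, from 12.4 ± 3.95 to 54.1 ± 11.3 CPM. Ephx2, the soluble epoxide hydrolase that turns epoxy fatty acids into diols, fell from 684 ± 78.5 to 185 ± 33.5 CPM (log2 change -1.89, adjusted p = 7.5e-05).

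Among 35 tested ion channels and water pores, 8 were called higher and 4 lower, or 34.3% against 12.3% over all genes tested. Hvcn1, the voltage-gated proton channel of phagocytes, rose from 16.0 ± 1.59 to 70.1 ± 17.5 CPM, and Kcnab2, a potassium channel subunit, from 5.01 ± 0.63 to 17 ± 3.03 CPM. Those lower were the large-conductance potassium channel Kcnma1 (34.0 ± 5.20 to 15.1 ± 2.98 CPM, log2 change -1.17), the cation channel Trpc6 and the L-type calcium channels Cacna1c and Cacna1d, a count of 4 that was 2 without control 2, control 4 or Post T replicate 2.

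**Figure D3:**
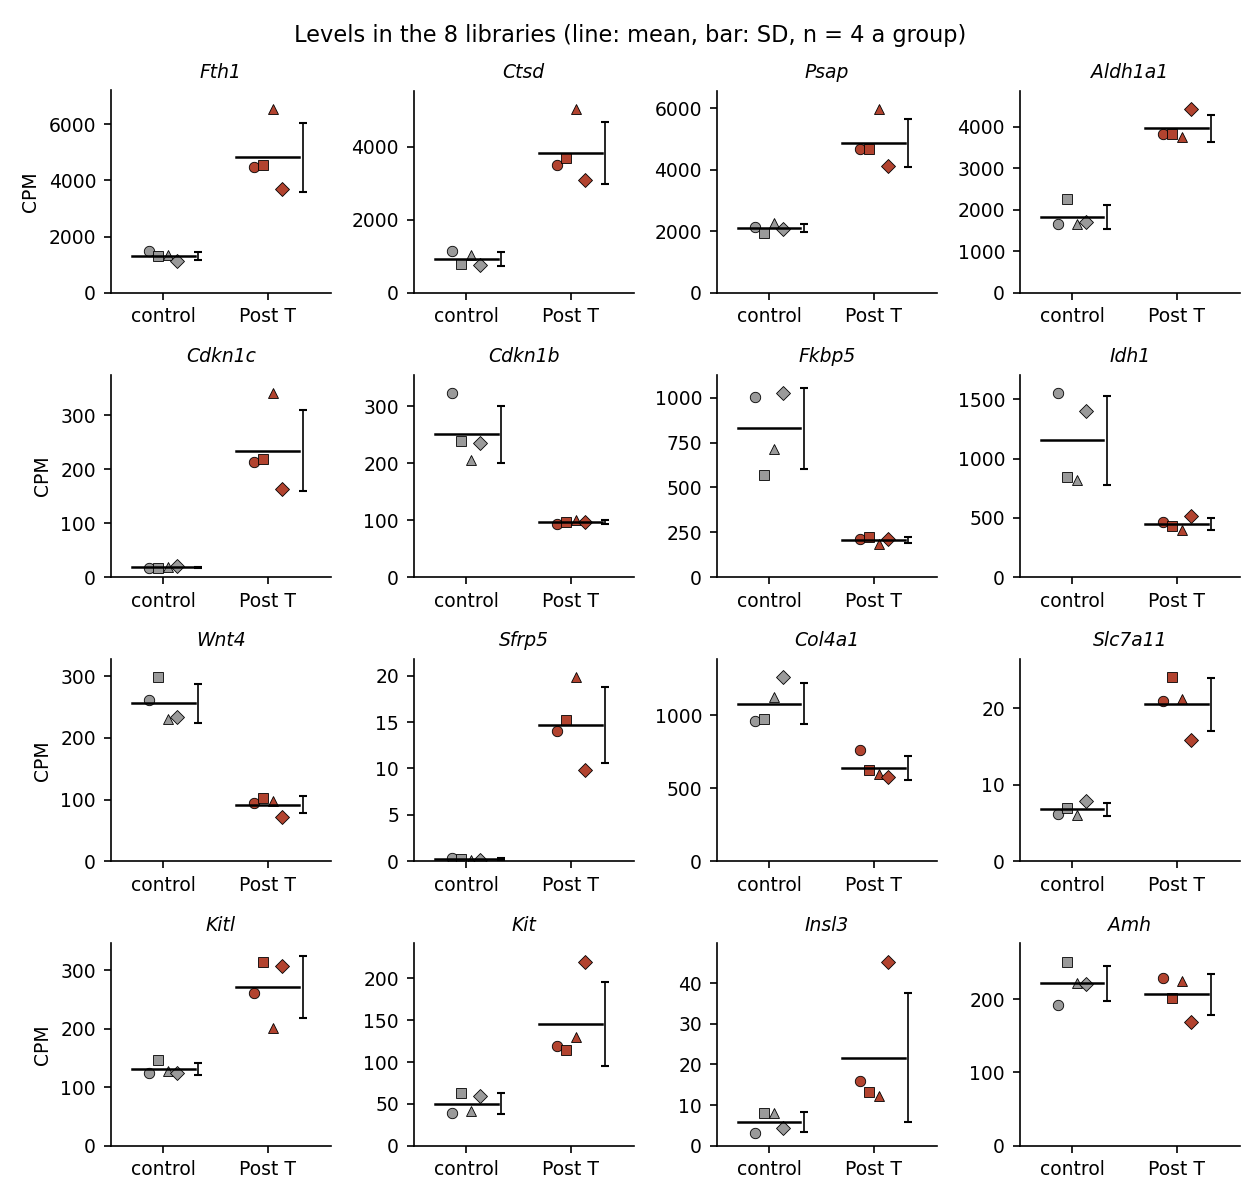
CPM of 16 genes in each of the 8 libraries (grey, control; red, Post T; circle, square, triangle and diamond mark replicates 1 to 4; horizontal line, group mean; bar, SD, n = 4). Groups are apart for Fth1, Ctsd, Cdkn1c, Cdkn1b, Wnt4 and Fkbp5, overlap for Amh, and 1 Post T ovary stands high for Insl3 and Kit.

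More luteal markers were called lower than higher. Of 20 tested luteal markers, 10 were called lower and 3 higher (Cdkn1c, Fabp3 and Apoe), with a median log2 change of -0.97. Per library, the median over the list of log2(CPM + 0.5) relative to the control mean was 0.54, -0.38, -0.28 and 0.24 in controls and -0.69, -1.11, -1.48 and -0.67 after washout. The groups did not overlap, and the first control was highest. Hsd17b7, an enzyme of both cholesterol and estradiol synthesis, stood at 1280, 74.1, 273 and 950 CPM in controls and at 39.6, 29.4, 29.5 and 59.7 CPM after washout. Its controls were widely spread, and without the first of them the log2 change of Hsd17b7 went from -4.02 to -3.43. Oxtr, the oxytocin receptor, fell from 136 ± 76.2 to 45.4 ± 13.6 CPM.

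Within 23 tested steroid synthesis genes, 4 were called lower and 1 higher (Srd5a3). The count lower was 2 without Post T replicate 1, and the count higher was 0 without control 3, control 4, or Post T replicate 1 or 3, and 2 without Post T replicate 2. Star, which brings cholesterol into mitochondria, stood at 2630, 622, 574 and 824 CPM in controls and at 298, 274, 179 and 404 CPM after washout, a log2 change of -2.01 ± 0.54 (adjusted p = 0.0204). The first control alone lay far above the others. Without it the log2 change of Star was -1.20 (adjusted p = 0.112), and the call was also lost without Post T replicate 1, 2 or 3 (adjusted p = 0.0528 to 0.0709). The side-chain cleavage enzyme Cyp11a1 stood at 4565 ± 1431 and 2339 ± 700 CPM (log2 change -0.96, adjusted p = 0.0686); it was called without the second control (adjusted p = 0.0489). Hsd3b1 (4942 ± 1760 and 4107 ± 1074 CPM) and the luteinising hormone receptor Lhcgr (467 ± 330 and 460 ± 213 CPM) were not called.

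Cholesterol genes were also called lower more than higher, with groups that mostly overlapped. Of 29 tested genes of synthesis and uptake, 13 were called lower and 2 higher, with a median log2 change of -0.79. Only 3 of the 29 had groups that did not overlap, beside 16.5% of all genes tested. The number called lower was 2 without the first control, 4 without the fourth control, 3 without the first Post T library and 2 without the second or the third. Per library the list's median was 0.85, -0.76, -0.41 and 0.28 in controls and -0.60, -0.83, -1.04 and -0.39 after washout, so that controls 2 and 3 lay within the Post T range. Fdps, which makes farnesyl diphosphate, stood at 560, 110, 163 and 255 CPM in controls and at 104, 62.0, 57.7 and 116 CPM after washout; without the first control its log2 change went from -1.68 to -1.03. Hmgcs1, an early enzyme of the pathway picked after the values were seen, stood at 680 ± 517 and 228 ± 85.2 CPM (log2 change -1.58, adjusted p = 0.0207). Its call was lost without the first control (-0.92) or Post T replicate 1, 2 or 3 (adjusted p = 0.0584 to 0.0732). The uptake receptor Scarb1 (1101 ± 476 and 583 ± 255 CPM), also picked afterwards, was not called. Among those called higher was Nceh1, which frees cholesterol from its esters (77.9 ± 4.88 to 127 ± 5.63 CPM, log2 change 0.71, adjusted p = 2.8e-05).

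**Figure D4:**
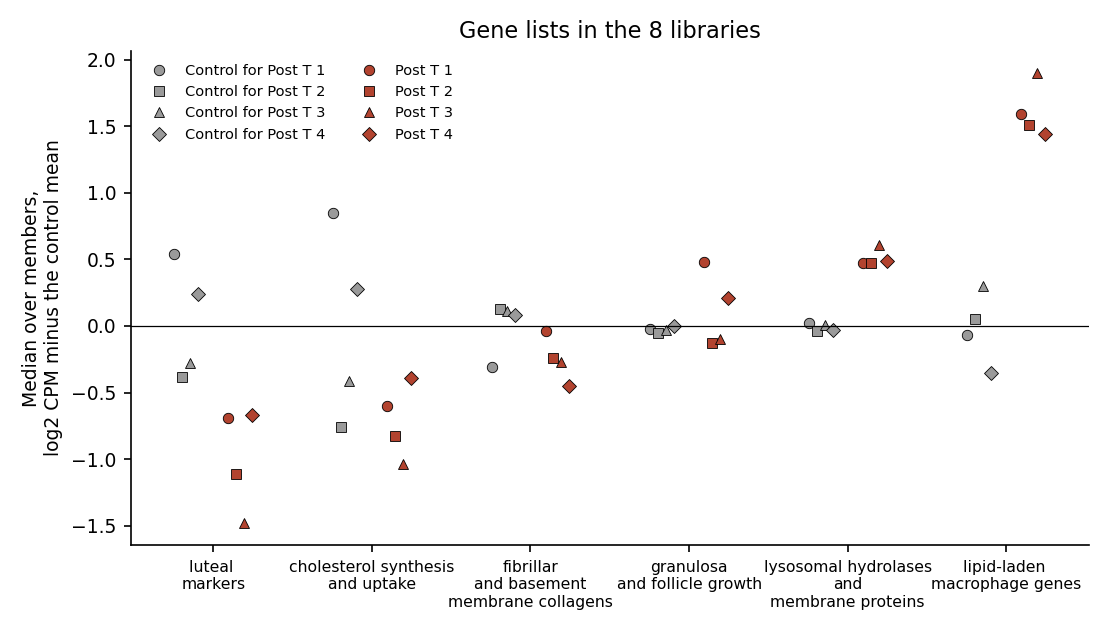
Median over the members of 6 gene lists of log2(CPM + 0.5) minus the control mean, with 1 point per library (grey, control; red, Post T; shapes mark replicates 1 to 4). Luteal and lysosomal lists separate the groups, whereas for cholesterol synthesis controls 2 and 3 lie among the Post T libraries.

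Several abundant enzymes outside these lists fell. Fkbp5 (chr17:28399094-28517527, minus strand), a chaperone of steroid receptors that is itself induced by progesterone, glucocorticoid and androgen, stood at 1004, 568, 716 and 1025 CPM in controls and at 211, 221, 186 and 214 CPM after washout. All 4 Post T ovaries were close together and far below the controls, with a log2 change of -1.99 ± 0.22 (adjusted p = 9.37e-06). Idh1, the cytosolic isocitrate dehydrogenase that makes NADPH, fell from 1154 ± 377 to 450 ± 51.1 CPM. Bcat1, which starts the breakdown of branched-chain amino acids, fell from 353 ± 30.8 to 165 ± 31.8 CPM, and the lipid droplet protein Plin4 from 273 ± 185 to 8.47 ± 3.75 CPM. The carboxylesterase Ces2a stood at 86.3, 0.874, 10.3 and 35.9 CPM in controls and at no more than 0.123 CPM after washout. Its log2 change of -9.18 was -8.08 without the first control and -10.03 without the first Post T library, and reads may be split with other Ces2 genes. Saa2, a serum amyloid gene near-identical to Saa1, had 1015 counts over the 4 controls and 0 over the 4 Post T libraries. Against a floor of 3 counts over the Post T group it was at least 379-fold lower, and the calcium-binding S100g, with 211 and 0 counts, at least 78.8-fold lower.

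Inhibitors of the cell cycle changed in opposite directions. Cdkn1c (chr7:143458339-143461050, minus strand), which encodes p57, stood at 17.1, 17.3, 18.0 and 20.2 CPM in controls and at 214, 219, 341 and 164 CPM after washout. The controls were nearly equal, and every Post T ovary was far above them. The log2 change was 3.69 ± 0.23 (adjusted p = 4.9e-08). Cdkn1b (chr6:134920401-134925513, plus strand), which encodes the related p27 of non-dividing luteal cells, stood at 323, 239, 206 and 236 CPM in controls and at 93.6, 97.4, 101 and 96.5 CPM after washout. The groups were again apart, with a log2 change of -1.37 ± 0.12 (adjusted p = 9.64e-07). At the Cdkn2 locus, Cdkn2b (p15) fell from 19.6 ± 3.79 to 1.71 ± 0.31 CPM (log2 change -3.50) and Cdkn2a from 1.34 ± 0.0875 to 0.619 ± 0.19 CPM (log2 change -1.13). Cdkn1a, which encodes p21 and was picked after the values were seen, stood at 39.0 ± 18.1 and 16.0 ± 2.25 CPM (log2 change -1.29, adjusted p = 0.0187), and its call was lost without the fourth control (-0.93) or Post T replicate 2 or 3 (-1.20 and -1.25).

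Of 24 tested genes of senescence and damage, 5 were called higher and 4 lower, or 37.5% against 12.3% over all genes tested. The higher ones were secreted or surface proteins: Il1a, Cxcl1 and Cxcl2, the stress cytokine Gdf15 (2.96 ± 1.08 to 15.9 ± 4.91 CPM) and the urokinase receptor Plaur (5.19 ± 1.09 to 19.7 ± 4.10 CPM). Those lower were Cdkn2b, Cdkn2a, Cdkn1a and Igfbp3. Of 30 tested genes of cell division, none was called by edgeR, DESeq2 or limma and none had an unadjusted p under 0.05. Mki67, the proliferation marker, stood at 86.0, 73.7, 88.8 and 88.4 CPM in controls and at 88.2, 71.4, 73.5 and 83.2 CPM after washout. The median log2 change of the list was -0.23, and its summed level was 1076 to 1489 CPM in controls and 970.8 to 1242 CPM after washout.

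More Wnt signalling genes were called lower than higher. Wnt ligands bind Frizzled receptors, and secreted Sfrp proteins hold them back. Of 46 tested genes, 10 were called lower and 3 higher, with a median log2 change of -0.23. Wnt10b (chr15:98770712-98778150, minus strand) stood at 72.0, 82.6, 114 and 146 CPM in controls and at 0.221, 0.178, 0.17 and 0.158 CPM after washout. It was close to undetectable in all 4 Post T ovaries, with a log2 change of -9.12 ± 0.50 (adjusted p = 8.25e-09). Wnt4 (chr4:137277489-137299726, plus strand), a ligand needed for female gonad development and made by granulosa and luteal cells, stood at 261, 298, 230 and 234 CPM in controls and at 95.0, 102, 98.2 and 71.6 CPM after washout, a log2 change of -1.48 ± 0.12. Wnt7b (9.64 ± 5.14 to 0.491 ± 0.128 CPM) and Wnt10a (3.23 ± 0.787 to 0.232 ± 0.108 CPM), picked after the values were seen, fell as well.

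Secreted Wnt inhibitors were called in both directions. Sfrp4, a secreted Frizzled-like protein of luteal cells, fell from 1132 ± 301 to 25.4 ± 8.34 CPM. Sfrp5 (chr19:42197971-42202252, minus strand), of the same family, stood at 0.351, 0.312, 0.178 and 0.172 CPM in controls and at 14.0, 15.2, 19.8 and 9.84 CPM after washout. Its log2 change of 5.88 ± 0.42 (adjusted p = 1.34e-07) headed the genes named for the size of their rise. The receptor Fzd2 went from 33.4 ± 5.36 to 52.5 ± 11 CPM, with groups that overlapped, and Wnt6 was the third member called higher.

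Several collagens fell. Of 29 tested collagens, 7 were called and all 7 were lower, with a median log2 change of -0.27. Col4a1 (chr8:11198423-11312826, minus strand), a main chain of basement membrane collagen, stood at 960, 972, 1125 and 1258 CPM in controls and at 759, 627, 597 and 579 CPM after washout, a log2 change of -0.75 ± 0.15 (adjusted p = 0.00301). The groups did not overlap. Col15a1 fell from 116 ± 25.9 to 46.7 ± 5.61 CPM, Col18a1, the source of endostatin, from 156 ± 29.9 to 90.2 ± 10.5 CPM, and Col8a1 from 9.80 ± 3.89 to 3.11 ± 0.472 CPM. The fibrillar Col1a1 (385 ± 81.3 and 328 ± 40.1 CPM, adjusted p = 0.519) and Col3a1 (967 ± 110 and 729 ± 70.8 CPM, adjusted p = 0.0575), the second picked after the values were seen, were not called. Col5a2, also fibrillar, was among the 7 called lower. Col3a1 was called lower by DESeq2 (adjusted p = 0.028) and by edgeR in a fit of the 8 libraries alone (adjusted p = 0.0417). It was also called without the first control (log2 change -0.47), which held 803 CPM against 1009 to 1031 in the others.

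Of 42 tested matrix glycoproteins, 5 were called higher (3 without control 4) and 4 lower, or 21.4% against 12.3% over all genes tested. Tenascin C, Tnc (chr4:63959785-64047015, minus strand), a protein of tissue remodelling, stood at 174, 317, 360 and 278 CPM in controls and at 24.2, 39.7, 30.7 and 17.5 CPM after washout. The highest Post T value was far below the lowest control, with a log2 change of -3.33 ± 0.28 (adjusted p = 4.99e-07). Ltbp1, which holds latent TGF-beta in the matrix, fell from 450 ± 232 to 69.5 ± 13.7 CPM. Cd44, the hyaluronan receptor, rose from 24.7 ± 6.70 to 71.8 ± 6.42 CPM (log2 change 1.54).

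Of 28 tested proteases and inhibitors, 4 were called higher and 6 lower. The proteases Adam8 (11.8 ± 4.43 to 42.6 ± 11.3 CPM) and Mmp12, the macrophage elastase (34.0 ± 10.1 to 144 ± 12.4 CPM), rose. Heparanase, Hpse, which cuts heparan sulfate, stood at 3.51, 4.22, 6.40 and 5.41 CPM in controls and at 55.5, 59.8, 68.5 and 47.8 CPM after washout, a log2 change of 3.56 ± 0.23. Of the inhibitors, Timp1 fell from 85.6 ± 30.9 to 25.7 ± 4.06 CPM and A2m from 4.73 ± 5.42 to 0.393 ± 0.0806 CPM. A2m reached 12.2 CPM in the first control, and without it the log2 change went from -3.55 to -2.46.

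Some markers of follicles and oocytes were called. Of 21 tested granulosa and follicle growth genes, 2 were called higher (Kitl and Gata4), and of 25 oocyte genes 1 was (Kit). The shares called were 9.52% and 4%, against 12.3% over all genes tested, so the granulosa share was near that of all genes. Without any 1 of 6 libraries (all but control 2 and Post T replicate 3), 1 granulosa gene was called higher. Kitl (chr10:100015630-100100416, plus strand), the ligand by which granulosa cells signal to oocytes and theca, stood at 125, 146, 128 and 124 CPM in controls and at 261, 315, 201 and 308 CPM after washout, a log2 change of 1.06 ± 0.12 (adjusted p = 1.41e-05). Its receptor Kit (chr5:75574916-75656722, plus strand), found on oocytes, theca and mast cells, stood at 38.7, 62.9, 41.0 and 59.0 CPM in controls and at 119, 114, 130 and 220 CPM after washout, a log2 change of 1.53 ± 0.24 (adjusted p = 0.000231). For both genes of the pair every Post T value lay above every control. The granulosa genes Amh (222 ± 24.3 and 206 ± 27.6 CPM), Fshr (23.7 ± 3.83 and 24.2 ± 7.76 CPM) and Foxl2 (223 ± 43.5 and 234 ± 49.9 CPM) and the oocyte gene Gdf9 (44.4 ± 6.20 and 47.1 ± 5.89 CPM) were not called (adjusted p = 0.845, 0.97, 0.874 and 0.851). Amh, Foxl2 and Gdf9, defining genes of granulosa cells and oocytes, were present in all 8 libraries.

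Of 15 tested theca and interstitial genes, 4 were called higher (Aldh1a1, Insl3, Tcf21 and Fbln5), with a median log2 change of -0.10. The share called was 26.7% against 12.3% over all genes tested, and 2 genes were called without control 1 or 4 or Post T replicate 1 or 3. Insl3, the peptide hormone of theca cells, stood at 3.04, 8.03, 7.97 and 4.33 CPM in controls and at 16.0, 13.2, 12.2 and 45.3 CPM after washout. The fourth Post T ovary was far above the other 3, and without it the log2 change of Insl3 went from 1.89 to 1.26. The androgen-forming enzyme Cyp17a1 stood at 95.3, 132, 84.1 and 142 CPM in controls and at 678, 176, 15.9 and 700 CPM after washout. Its Post T values lay on both sides of the control range, and it was not called (log2 change 1.79 ± 0.95, adjusted p = 0.284). Aromatase, Cyp19a1, was also lowest in the third Post T ovary (13.8 CPM, against 66.0 to 98.4 in the other 3) and was not called (adjusted p = 0.841). The receptors for estrogen and progesterone were not called: Esr1 stood at 68.6 ± 24.0 and 54.7 ± 8.92 CPM, Esr2 at 107 ± 18.3 and 120 ± 11.5 CPM, and Pgr at 2.74 ± 1.09 and 2.79 ± 1.09 CPM.

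Lists of other cell types differed in how many members were called, beside a share of 12.3% over all genes tested. Of 20 tested blood endothelial genes, 1 was called, Vwf, the clotting factor carrier, which rose from 16.5 ± 4.80 to 39.3 ± 4.47 CPM. Of 17 smooth muscle genes, 1 was called lower (Npnt; 0 without control 4 or Post T replicate 2 or 3), and smooth muscle actin, Acta2, stood at 508 ± 78.0 and 474 ± 104 CPM (adjusted p = 0.839). Of 36 nuclear genes of the respiratory chain none was called by edgeR, with 2 lower at an unadjusted p under 0.05 and 1 called lower by DESeq2 and by limma. Of 16 nerve and glia genes, 1 was called higher, the neurofilament Nefh (0.541 ± 0.187 to 2.87 ± 1.85 CPM), and 3 lower: Mbp (82.7 ± 18.1 to 22.8 ± 1.76 CPM), Uchl1 (124 ± 33.2 to 56.0 ± 5.30 CPM) and S100b (3.40 ± 2.07 to 0.196 ± 0.123 CPM). Of 14 adipocyte genes, 1 was called higher, the receptor Acvr1c (2.20 ± 0.705 to 7.98 ± 1.91 CPM), and 1 lower (Plin4), with 2 higher without Post T replicate 3 and 2 lower without control 2. Of 12 adrenal cortex genes, 7 passed the filter on low counts, and Cyp21a1, Cyp11b2 and Mc2r were among those that did not. Of the 7, 4 were called lower (Cyp11b1, Mrap, Akr1b7 and Star) and 2 higher (Ephx1 and Susd3). The count lower was as low as 3 with 1 library left out, as without control 1, where the Star call was lost. The count higher was 1 without Post T replicate 1 or 4. The adrenal enzyme Cyp11b1 had 63 counts over the controls and 0 over the Post T libraries, at least 23.5-fold lower against the same floor. Of 27 lymphocyte genes, 10 were called higher, with a median log2 change of 0.74 and a summed level of 54.11 to 57.55 CPM in controls and 99.54 to 136.1 CPM after washout. Of 23 granulocyte and mast cell genes, 10 passed the filter, of which 5 were called higher (Kit, Csf3r, Siglecf, S100a8 and Cxcr2). What part changes in cell types had in the other results was not tested.

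The effect after washout was then set beside the effect during testosterone. The 2 comparisons share no library. On T mice and their controls were 16 weeks old, and the mice of the washout comparison 24 to 28 weeks. In a difference between the effects, washout therefore cannot be told apart from age or from the set of mice. On testosterone 1746 genes (9.27%) were called, 799 higher (4.24%) and 947 lower (5.03%). Of the genes called higher after washout, 332 were also called higher on testosterone (23.5% of the Post T genes, 41.6% of the On T genes), and of those called lower, 434 (48.0% and 45.8%). Wnt4 was at a log2 change of -1.40 on testosterone and -1.48 after washout, Cdkn2b at -3.53 and -3.50, and Wnt10b at -8.49 and -9.12. For none of these 3 was a difference between the effects called (adjusted p = 0.874, 0.983 and 0.815). For 1060 of the genes called higher after washout there was no call on testosterone.

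The difference between the effects was called for 612 genes (3.25%), with the Post T effect more positive for 551 and more negative for 61. The count of 61 was 31 to 40 without any 1 of 7 libraries (Post T replicate 1 or 4, On T replicate 1 or 4, or control of On T replicate 1, 3 or 4). Of the 53 lysosomal hydrolases and membrane proteins, 19 were among them, and of the 21 proton pump genes 11. Cdkn1c changed by 0.91 on testosterone and by 3.69 after washout, a difference of 2.77 (adjusted p = 0.000508). Stac2, an adaptor of calcium channels, changed by 1.09 and 3.52, and Hpse by 1.28 and 3.56. Psap, Slc7a11 and Aldh1a1 were near 0 on testosterone (-0.11, -0.05 and -0.01) and at 1.21, 1.59 and 1.12 after washout, with differences of 1.32, 1.64 and 1.13 (adjusted p = 0.000632, 0.000657 and 0.0332). On the other side Snap91, a clathrin assembly protein best known from synapses, changed by -0.84 on testosterone and by -3.60 after washout (5.80 ± 1.80 to 0.463 ± 0.184 CPM), and Cdkn1b by -0.57 and -1.37. Tspan12, a partner of Frizzled 4, changed by -0.23 and -0.87.

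A few genes changed in opposite directions. In all, 18 genes were called lower on testosterone and higher after washout, among them Cd44 (-0.82 and 1.54), Olfm2 (-0.83 and 1.70) and Rnf128, a ubiquitin ligase of T cells (-0.69 and 0.92), the last 2 picked after the values were seen. The reverse held for 3 genes, of which 2 are given, also picked for this. Gabrb1, a GABA receptor subunit, changed by 0.82 and -1.26. Its Post T change was not called by limma. There it was -0.14 on log2(TPM + 1) and -0.51 on log2(TPM + 0.1), with adjusted p = 0.253 and 0.236. Tbc1d4, a regulator of glucose transporter traffic, changed by 0.51 and -0.48, and its Post T call was lost without any 1 library other than the first control (adjusted p = 0.0541 to 0.175).

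**Figure D5:**
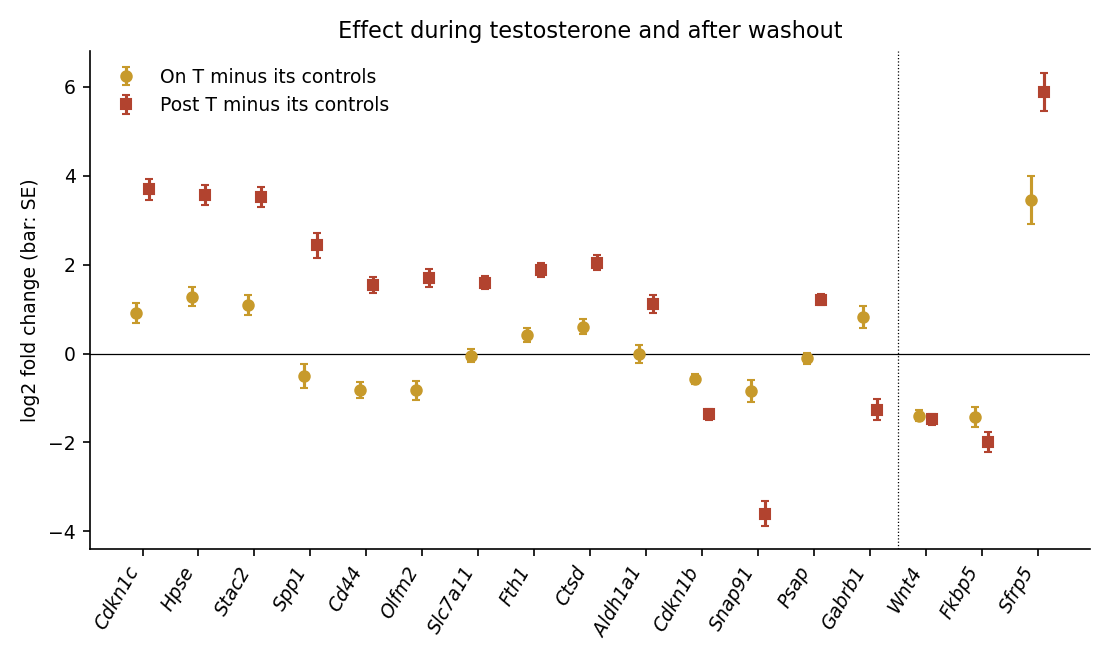
Log2 fold change with SE of 17 genes on testosterone (yellow circles, On T minus its controls) and after washout (red squares, Post T minus its controls); the difference between the 2 effects was called for the 14 genes left of the dotted line and not for the 3 on its right. Cd44, Olfm2 and Gabrb1 lie on opposite sides of 0.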

How the data were processed

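RNA was measured in 16 mouse ovary libraries, of which the 4 Post T and 4 Control for Post T libraries are compared here. Per the labels' protocols, poly(A) RNA went into directional paired-end libraries. Tools listed in the submitters' processing notes are STAR 2.7.8a, cutadapt 2.3, RSEM 1.3.3 and FastQC 0.11.8, in no stated order, with the build GRCm38. The deposited expected counts are the authors' RSEM estimates per gene, not normalised; they were rounded to whole numbers. The deposited TPM values, scaled by the authors for gene length and library size, served only for alternatives. Annotation release and strand setting are not given in the sources used here. Gene names are those deposited with the counts. Coordinates came from GENCODE M21, in which 99.66% of the 55426 identifiers were found.

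The model was edgeR 4.0.16 under R 4.3.3 (filterByExpr minimum count 10, TMM, 1 mean per group over all 16 libraries, quasi-likelihood F test, Benjamini-Hochberg adjustment over 18833 genes at 0.05). SE is the fold change divided by the root of its F statistic. CPM values are TMM-scaled, given as mean ± SD of 4 libraries, and set levels of 1 gene between libraries, not of different genes. On simulated counts over 18632 genes for this comparison, with 200 genes changed, the fit recovered 87% of 2-fold and 100% of 4-fold changes and made 9 false calls. The changed genes were not drawn from those of lowest level, and each gene took the spread typical of its level. These figures therefore do not cover low genes, genes with a wider spread or genes with an outlying library. Alternatives were DESeq2 1.42.0, limma 3.58.1 on log2(TPM + 1) and log2(TPM + 0.1), other filters and scalings, age, a replicate block, and each library left out. Some lists share members. The comparison, gene lists and naming rules were chosen with earlier results of these data known. The rule named the 12 largest fold changes in each direction, with at least 1 CPM in the higher group, and the 12 largest gains and losses in CPM. It also named the 5 smallest p-values in each direction where effects differed. These 3 parts drew only on called genes whose groups did not overlap, without predicted genes and pseudogenes. Further names were the 3 smallest p-values among called members of each list in each direction, all called members of lists with 5 or fewer, and 20 fixed genes. The text uses a selection, and names picked afterwards are marked. A few genes are not reported here.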

Additional observations from a re-analysis of the deposited data

Results flagged for a closer look

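For 25 of 276 gene and group pairs examined (138 named genes in each of the 2 groups of 4), a single library stood apart from the other 3. It was the highest in 23 pairs and the lowest in 2. About 1 in 20 groups of normally distributed values would show this. CPM values need not be so distributed and the genes share libraries, so that rate cannot tell whether 25 is an excess. In the first control, Star (2630 CPM against 574 to 824), Oxtr (249 against 89.5 to 110), Nceh1 (85.2 against 74.8 to 76.3), Pld3 (139 against 110 to 115) and Nefh (0.818 against 0.406 to 0.474) were highest, and Col3a1 (803 against 1009 to 1031) lowest. In the second control, Aldh1a1 (2266 against 1656 to 1714), Hmox1 (153 against 63.3 to 75.9), Uchl1 (173 against 99.7 to 112) and Acta2 (625 against 460 to 480) were highest. The third control was highest for Adgre1 (23.3 against 13.1 to 13.9) and Hvcn1 (18.4 against 15.0 to 15.5), and the fourth for Mbp (110 against 71.6 to 76.3) and Col18a1 (200 against 136 to 146). Among Post T libraries, the first was highest for Foxl2 (308 against 201 to 219) and the second for Clec4e (5.26 against 2.28 to 2.46) and Plin4 (14.0 against 5.80 to 7.03). The third was highest for Gla (51.3 against 47.5 to 47.9), Mcoln1 (43.5 against 36.6 to 37.6), Dhrs3 (204 against 143 to 149) and C1qb (252 against 172 to 181), and lowest for Atp6v1a (165 against 176 to 177). The fourth was highest for Kit (220 against 114 to 130), Insl3 (45.3 against 12.2 to 16.0) and Aldh1a1 (4434 against 3766 to 3835).

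For 50 named genes the effect after washout differed from the effect on testosterone at an adjusted p under 0.05 in edgeR's quasi-likelihood test of the difference. The values are log2 differences, Post T effect minus On T effect. Iron genes were at 1.45 for Fth1, 1.46 for Ftl1 and 1.31 for Slc11a1. Lysosomal genes were at 1.44 for Ctsd, 1.32 for Psap, 1.23 for Gla, 1.39 for Atp6v0d2, 0.78 for Atp6v1a, 1.03 for Tcirg1, 0.78 for Clcn7, 0.92 for Fnip2 and 0.50 for Tfe3. Macrophage genes and their receptors were at 1.53 for Itgax, 1.65 for Fabp5, 0.99 for Pld3, 2.94 for Spp1, 1.91 for Hk3, 1.77 for Clec7a, 3.41 for Clec4e and 1.53 for Pira2. Genes of retinoid and redox metabolism were at 1.13 for Aldh1a1, 1.35 for Lrat, 1.64 for Slc7a11 and 1.06 for Gsta3. Lipid mediator and channel genes were at 1.16 for Hpgds, 1.76 for Tbxas1, 1.24 for Pla2g7, 1.5 for Kcnab2 and 1.12 for Hvcn1. Cell-cycle and secreted stress genes were at 2.77 for Cdkn1c, -0.80 for Cdkn1b, 1.85 for Cdkn1a, 2.07 for Gdf15 and 2.11 for Plaur. Matrix genes were at 2.35 for Cd44, 1.69 for Adam8, 1.80 for Timp1, -3.91 for A2m and 2.28 for Hpse. Complement and bone genes were at 1.33 for C1qb and 2.16 for Acp5. Other genes were at 2.42 for Stac2, 1.39 for Acvr1c, 2.52 for Olfm2, 1.6 for Rnf128, -2.77 for Snap91, -0.64 for Tspan12, -0.82 for Bcat1, -2.08 for Gabrb1 and -0.99 for Tbc1d4.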

How the results depend on the processing

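The Post T counts (2315 called, 1410 higher, 905 lower) stayed within 1.5 times under all alternatives run: 1753 to 2294 genes were called with 1 library of the 8 left out, 2801 by DESeq2, 1860 by limma on log2(TPM + 1) and 2015 in a fit of the 8 libraries alone. Of the 2315 genes, 73.1 to 99.3% stayed called. For the difference of effects (612 called, 551 more positive, 61 more negative), DESeq2 called 999, of which 216 were more negative, and without the filter on low counts 39 were more negative; leaving out 1 library gave 453 to 735 called, 421 to 650 more positive and 31 to 85 more negative. The cause was not tested. Of the 138 named genes, 130 to 138 kept their direction and side of the threshold in each setting, and none changed sign among the calls. For low genes, limma on log2(TPM + 1) gave smaller folds (A2m -0.86 against -3.55).

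Same-numbered Post T and control libraries deviated together with r = 0.138, 0.234, 0.0430 and 0.0790. Differently numbered ones had r from -0.238 to 0.156. Such values cannot decide whether the numbers pair the mice. With a replicate block 2274 genes were called (567 for the difference of effects), and the calls of Star and Tfeb were lost (adjusted p = 0.0544 and 0.052).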

Other observations

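Of 23 tested complement genes, 12 were called higher after washout, with a median log2 change of 0.74. C1qb, a chain of the C1q complex, rose from 71.6 ± 16.8 to 197 ± 37.5 CPM (SD, n = 4 each), C3ar1, the receptor for C3a, from 11.3 ± 2.07 to 34.8 ± 8.52 CPM, and C3, the central component, from 34.1 ± 12.4 to 131 ± 47.1 CPM. The terminal component C7 rose from 9.15 ± 5.28 to 49.8 ± 17.6 CPM, and Serping1, the inhibitor of C1, from 81.6 ± 15.9 to 137 ± 16.2 CPM. C3, C7 and Serping1 were picked after the values were seen.

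Of 17 tested genes known from bone and osteoclasts, 5 were called higher and 3 lower, the latter count being 1 without control 3 or 4 or Post T replicate 1 or 2. Acp5, the tartrate-resistant phosphatase, rose from 13.7 ± 5.23 to 95.6 ± 26.2 CPM and the protease Ctsk from 19.1 ± 1.17 to 40.7 ± 0.874 CPM. Runx2, a transcription factor of bone that is also induced in ovulating follicles and luteal cells, fell from 105 ± 60.5 to 4.2 ± 0.604 CPM (log2 change -4.65, adjusted p = 4.22e-06).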
